A study of Mus musculus with 32 samples.

Results

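The 7 genes of MHC class II antigen presentation described here are H2-Aa, H2-Ab1, H2-Eb1, Cd74, Ciita, H2-DMa and H2-DMb1. They were taken by gene symbol from the 50600 genes of the count and TPM tables, and all 7 passed the filter on low counts that kept 17717 genes for testing. The tissue was primary melanoma from mice that carry Tyr::NrasQ61K, an oncogenic NRAS driven by the melanocyte promoter of tyrosinase, together with 1 functional copy of Cdkn2a (Cdkn2a-/+) and 2 floxed copies of Cdh1 (Cdh1F/F). These alleles were common to all groups, so the controls, named Ecad, also carried floxed Cdh1, but no Cre. The tumours named ΔEcad had, by the methods of the study, a Cre recombinase under the same tyrosinase promoter, which deletes Cdh1, the gene of E-cadherin, in melanocytes and not in the other cells of the tissue. There were 8 tumours in each of 4 groups, Ecad male, Ecad female, ΔEcad male and ΔEcad female, and no treatment. The ages of the mice were not given in the labels.

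MHC class II molecules present peptides from endocytosed proteins to CD4 T cells. H2-Aa and H2-Ab1 encode the alpha and beta chains of I-A, and H2-Eb1 the beta chain of I-E, whose alpha chain gene, H2-Ea, is defective in the C57BL/6 strain. Cd74 encodes the invariant chain, which holds the groove closed until the endosome, where H2-DMa and H2-DMb1, the chains of H2-M, exchange its remnant for peptide. Ciita encodes the class II transactivator, which binds no DNA itself and is recruited by the factors that sit on the X and Y boxes of class II promoters. Dendritic cells and B cells make class II at all times, and macrophages to a varying degree. Interferon-gamma can raise it in macrophages and induce it in other cells, melanoma cells among them.

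Promoters are shown because class II genes are known to share the boxes through which Ciita acts. RefSeq windows from 250 bases before to 50 bases after the start of the gene (GRCm38.p6) were used for 4 of the 7 members, namely H2-Aa, H2-Eb1, H2-DMb1 and H2-DMa. None was matched for H2-Ab1 or Ciita. That of Cd74 was not used here, so the 4 are not all the members with a window. The search was for GATTGG, the core of the Y box, and for GNAAC, a core found in X boxes, starting from 20 to 45 bases before it on the strand of the gene. The letters and the spacing were chosen after the sequences had been seen. Capitals mark these letters.
H2-Aa, chr17:34287774-34288073, minus strand: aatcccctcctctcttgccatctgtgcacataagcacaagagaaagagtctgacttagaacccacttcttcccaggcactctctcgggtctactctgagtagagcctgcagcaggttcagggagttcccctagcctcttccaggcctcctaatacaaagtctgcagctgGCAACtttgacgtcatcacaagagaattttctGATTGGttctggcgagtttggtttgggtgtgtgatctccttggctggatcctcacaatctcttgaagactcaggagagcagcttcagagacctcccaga
H2-Eb1, chr17:34305617-34305916, plus strand: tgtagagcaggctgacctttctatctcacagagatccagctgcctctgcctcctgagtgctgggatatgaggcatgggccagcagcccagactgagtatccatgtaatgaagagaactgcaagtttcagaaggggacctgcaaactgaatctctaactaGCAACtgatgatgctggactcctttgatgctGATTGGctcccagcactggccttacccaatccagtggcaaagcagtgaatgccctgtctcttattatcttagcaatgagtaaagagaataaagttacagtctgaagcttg
H2-DMb1, chr17:34152941-34153240, plus strand: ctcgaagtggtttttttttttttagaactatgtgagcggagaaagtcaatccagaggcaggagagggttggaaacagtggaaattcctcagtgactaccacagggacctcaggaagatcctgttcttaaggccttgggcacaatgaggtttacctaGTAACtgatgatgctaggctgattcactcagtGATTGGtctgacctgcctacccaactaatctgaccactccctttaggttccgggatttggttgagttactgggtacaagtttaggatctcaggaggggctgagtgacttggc
H2-DMa, chr17:34122582-34122881, plus strand: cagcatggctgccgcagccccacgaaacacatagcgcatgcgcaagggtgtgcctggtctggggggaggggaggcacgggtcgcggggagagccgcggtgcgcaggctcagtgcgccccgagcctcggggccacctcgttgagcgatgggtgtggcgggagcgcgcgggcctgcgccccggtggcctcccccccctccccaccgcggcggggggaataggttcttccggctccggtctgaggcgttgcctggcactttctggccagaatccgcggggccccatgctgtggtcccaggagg

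H2-Aa, H2-Eb1 and H2-DMb1 each held the pair, with 32, 31 and 32 bases from the X core to the Y core, and with the Y core starting 49, 60 and 62 bases before the start of the gene in RefSeq. Both H2-DMa windows belong to RefSeq starts that lie inside the span of the gene given below by GENCODE, so the sequence before its first base was not searched. The rest of that span was not searched either, so these windows do not show whether H2-DMa has the boxes elsewhere. The one shown held no Y core, and hence no pair, and a second H2-DMa window, from base 34125268, held a Y core with no X core at the spacing searched. Among the other class II genes, H2-Oa, H2-Ob and H2-Eb2 held the pair, at 32, 29 and 31 bases, and H2-DMb2 held the Y core alone. Of all 32851 windows, 8.71% held GATTGG on the strand of the gene, 16.1% held it on either strand, and 0.721% held the pair. H2-Eb1 also held the Y core once on the other strand, as CCAATC. These are matches of letters, and no binding was measured.

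The genes lie in the class II region of chromosome 17 (GRCm38), apart from Cd74 and Ciita. H2-DMa spans chr17:34119541-34139101 (plus strand), H2-DMb1 chr17:34153072-34160230 (plus), H2-Ab1 chr17:34257689-34269419 (plus), H2-Aa chr17:34282744-34287823 (minus) and H2-Eb1 chr17:34305867-34316674 (plus). Cd74 is at chr18:60803848-60812652 (plus) and Ciita at chr16:10480059-10528418 (plus). H2-DMa overlaps Brd2 on the opposite strand, Ciita overlaps Dexi, H2-Eb1 overlaps the antisense gene Gm20513, and Cd74 holds Mir5107. Since the counting is not stated to have used the strand, reads of these pairs cannot be told apart, and the values of these 4 members are uncertain to that extent. H2-DMb1 and H2-DMb2 are near-identical copies, between which reads may have been split.

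Total counts ranged from 24036333 to 63923086 per tumour. The level of Cdh1 ran from 25 to 281.9 TPM in the male Ecad group and from 0.79 to 65.2 TPM in the male ΔEcad group, a difference of -3.33 on the log2 scale (SE 0.96, edgeR adjusted p 0.365). In the female Ecad group it ran from 2.16 to 151.2 TPM and in the female ΔEcad group from 0.17 to 143.2 TPM, a difference of -0.002 (SE 0.87, edgeR adjusted p 0.999). The counts cover the whole gene and every cell of the tissue, so they do not check the deletion in melanocytes, and the female genotypes rest on the labels. There were 3 tumours that stood apart. The library labelled ΔEcad male 2 had 1752 counts of Xist, against at most 46 in the other males, and 0 counts of Ddx3y, Eif2s3y, Kdm5d and Uty. The summed level of 8 melanocytic markers was 31.6 TPM in ΔEcad male 7 and at least 5780 TPM in every other tumour. ΔEcad female 3 had 1 count of Ptprc and 0 counts of C1qa, C1qb, C1qc, Cd3e and Flt3, markers of leukocytes, macrophages, T cells and dendritic cells. Comparisons and relations were repeated without these 3 tumours.

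Class II transcripts differed widely between tumours of the same group, and the groups overlapped for all 7 genes in each of the 4 two-group comparisons. How many of all genes overlap in this way was not counted, so the overlap is a description and not a trait of these genes. Levels are in TPM, a unit that corrects for the length of a gene and for library size, and for each group the lowest, the median and the highest of 8 tumours are given. H2-Ab1 was at 41.5, 99.97 and 1099.5 TPM in Ecad males, at 7.50, 25.7 and 871 TPM in Ecad females, at 11.3, 234 and 1112 TPM in ΔEcad males, and at 0.04, 107 and 313 TPM in ΔEcad females. The highest ΔEcad female lay below the highest tumour of every other group. H2-Aa, the partner chain, was at 54.5, 100.3 and 908 TPM in Ecad males, 5.95, 31.2 and 933 TPM in Ecad females, then 13.9, 233 and 1231.5 TPM in ΔEcad males, and 0, 86.0 and 276.5 TPM in ΔEcad females. The tumour listed at 0 was ΔEcad female 3, where a count of 0 allows up to 3 counts. H2-Eb1 was at 66.1, 133 and 1081 TPM in Ecad males, 7.38, 37.1 and 1133 TPM in Ecad females, then 11.1, 300.0 and 1566 TPM in ΔEcad males, and 0.53, 119 and 401 TPM in ΔEcad females.

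Cd74, the invariant chain, was the most abundant of the 7, at 123, 262 and 1945 TPM in Ecad males, 11.7, 71.6 and 1889 TPM in Ecad females, then 31.0, 551 and 2828 TPM in ΔEcad males, and 6.48, 211 and 832 TPM in ΔEcad females. In ΔEcad female 3, in which H2-Aa had 0 counts and H2-Ab1 1 count, Cd74 still had 130 counts. The H2-M chains were lower. H2-DMa was at 8.06, 16.2 and 215 TPM in Ecad males, 2.96, 7.00 and 79.4 TPM in Ecad females, then 4.96, 27.7 and 99.4 TPM in ΔEcad males, and 6.64, 17.9 and 33.7 TPM in ΔEcad females. H2-DMb1 was at 8.01, 17.8 and 228 TPM in Ecad males, 0.76, 14.8 and 104 TPM in Ecad females, then 3.57, 33.5 and 95.8 TPM in ΔEcad males, and 1.33, 24.7 and 90.5 TPM in ΔEcad females. Ciita, the transactivator, was at 0.37, 0.86 and 12.7 TPM in Ecad males, 0, 0.34 and 6.55 TPM in Ecad females, then 0.03, 2.13 and 12.5 TPM in ΔEcad males, and 0.03, 1.47 and 8.53 TPM in ΔEcad females. It had at most 3 counts in 3 tumours, Ecad female 3, ΔEcad male 6 and ΔEcad female 3, where levels are not separable from 0 at this depth.

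The same few tumours were high for nearly every gene. Ecad male 4, Ecad male 6, Ecad female 7, ΔEcad male 7 and ΔEcad male 8 were the 5 highest for H2-Ab1, and the same 5 were the highest for H2-Aa, H2-Eb1, Cd74 and H2-DMa. For H2-DMb1, 4 of these 5 were among its 5 highest, with ΔEcad female 6 in place of ΔEcad male 7. For Ciita 3 of the 5 were, with ΔEcad male 4 and ΔEcad female 6 joining them. At the other end, H2-Ab1 was under 15 TPM in 4 tumours, Ecad female 3, Ecad female 8, ΔEcad male 6 and ΔEcad female 3. H2-DMa stayed between 4.96 and 7.53 TPM in these 4, and over the 31 tumours other than ΔEcad female 3 it spanned a 72.5-fold range against a 148-fold range for H2-Ab1. Reads of Brd2, which overlaps H2-DMa, cannot be told apart from those of H2-DMa, and their share in these low levels was not tested.

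By median TPM over the 32 tumours the order was Cd74 at 223, H2-Eb1 at 106, H2-Ab1 at 88.8, H2-Aa at 88.03, H2-DMb1 at 20.1, H2-DMa at 13.8 and Ciita at 1.19 TPM. Of the 6 steps between neighbours, 3 passed a sign-flip permutation test on the difference of log2(TPM + 0.1) within tumours (100000 permutations, two-sided, Benjamini-Hochberg adjusted over the 6 steps). The neighbours were picked by the medians of the same 32 tumours, so the p-values are no independent support for the order. Cd74 exceeded H2-Eb1 by 1.15 ± 0.89 on the log2 scale (SD, n = 32, permutation adjusted p 3e-05) and in 32 of 32 tumours. H2-Aa exceeded H2-DMb1 by 1.95 ± 1.70 (SD, n = 32, permutation adjusted p 4e-05) and in 29 of 32 tumours. H2-DMa exceeded Ciita by 3.85 ± 1.06 (SD, n = 32, permutation adjusted p 3e-05), again in all 32. The steps from H2-Eb1 to H2-Ab1, from H2-Ab1 to H2-Aa and from H2-DMb1 to H2-DMa did not pass (permutation adjusted p 0.249, 0.242 and 0.272).

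Members were compared as 4 ratios within a tumour, on log2(TPM + 0.1). H2-Eb1 and H2-Ab1, in 1 of these ratios, encode beta chains of different molecules, I-E and I-A. The ratio of H2-Aa to H2-Ab1, the chains of I-A, had a median of -0.098 and an SD of 0.45 over the 32 tumours, while H2-Aa itself had an SD of 2.71 on this scale. Cd74 stood at a median of 2.46 times H2-Ab1, and H2-Eb1 at 1.30 times. The ratio of H2-DMa to H2-DMb1 was the loosest of the 4, with a median of -0.229 and an SD of 1.06, and it ran from -2.78 in Ecad female 1 to 2.72 in Ecad female 3. Ecad female 1 had 68.2 TPM of H2-DMb1 beside 9.84 TPM of H2-DMa and 0.80 TPM of H2-DMb2, and ΔEcad female 6 had 90.5 TPM of H2-DMb1 beside 23.3 TPM of H2-DMa. In Ecad males this ratio spread little, with an SD of 0.25, against 1.65 in Ecad females (n = 8 each). Of 16 tests, the 4 ratios over 4 pairs of groups, 0 passed (two-sided exact permutation over all splits of the 16 tumours, Benjamini-Hochberg adjusted p from 0.850 to 0.998), and the lowest unadjusted permutation p was 0.134, for Cd74 to H2-Ab1 in ΔEcad females against ΔEcad males.

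**Figure D1:**
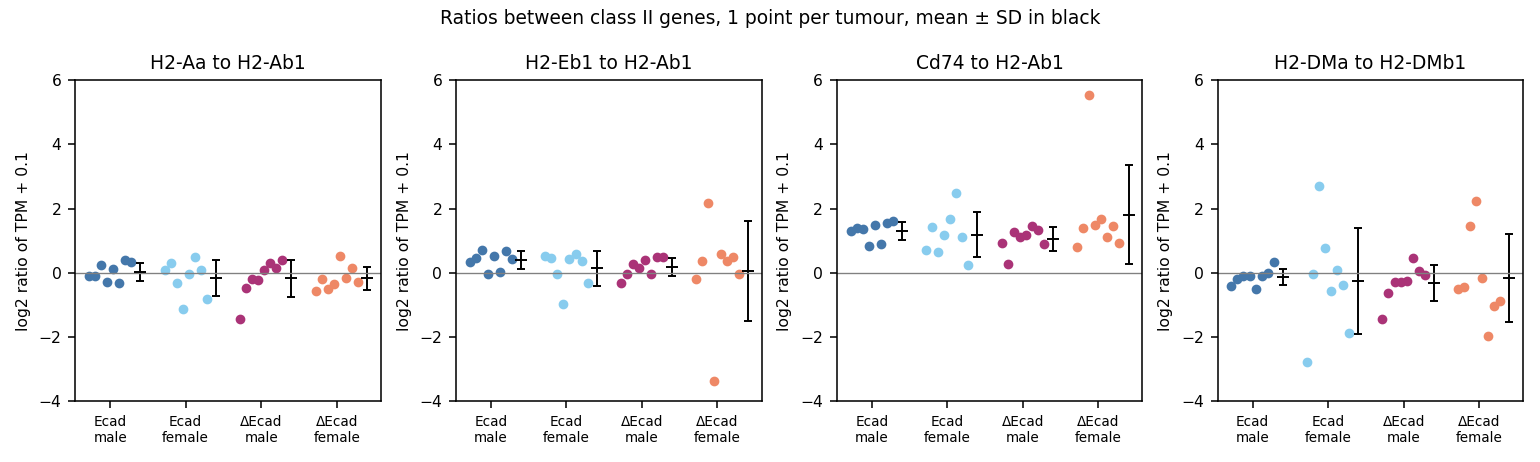
Log2 ratio of TPM + 0.1 between pairs of class II genes in each tumour, by group, with the mean ± SD of 8 tumours in black beside the points. The I-A chains keep near 0, whereas H2-DMa to H2-DMb1 runs from -2.78 to 2.72 among the Ecad females.

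Whether loss of Cdh1 went with a change in class II was asked within each sex. Over all genes, 1.2% of 17717 were called in females and 0% in males, a call being a Benjamini-Hochberg adjusted p under 0.05 in the quasi-likelihood test of edgeR and a log2 fold change beyond 1 in either direction. Of the 7 members, 0 were called in either sex, 0 had an unadjusted edgeR p under 0.05, and DESeq2 and limma called 0 as well. In females (ΔEcad against Ecad) the log2 fold change was -0.38 (SE 1.05) for H2-Aa, -0.30 (SE 0.99) for H2-Ab1, -0.32 (SE 1.03) for H2-Eb1 and -0.11 (SE 0.92) for Cd74. It was 0.09 (SE 0.73) for H2-DMa, 0.18 (SE 0.85) for H2-DMb1 and 0.50 (SE 1.07) for Ciita, and the edgeR adjusted p of the 7 lay between 0.891 and 0.980. The median was -0.11, beside -0.018 over all genes tested.

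With tumours left out 1 at a time, the negative sign of H2-Aa, H2-Ab1 and H2-Eb1 in females turned only without Ecad female 7. That of Cd74, closer to 0 at -0.11, turned in 4 of these repeats. Ecad female 7 held 871 TPM of H2-Ab1 where the next Ecad female held 90.0 TPM, so the mean of the Ecad females (137 TPM) lay above that of the ΔEcad females (115 TPM) although the medians lay the other way, at 25.7 and 107 TPM. Without Ecad female 7 the log2 fold change of H2-Ab1 was 1.97 (SE 0.91, edgeR adjusted p 0.261), that of H2-Aa 1.88 (SE 0.98, edgeR adjusted p 0.334) and that of Cd74 1.84 (SE 0.85, edgeR adjusted p 0.262), and none of the 7 was called. In limma voom with quality weights, which lowers the weight of tumours far from their group, all 7 lay between 0.91 and 1.91, with 0 called. Macrophage markers moved with it, their summed level being 4979 TPM in Ecad female 7 against a median of 619 TPM in Ecad females, and T cell markers stood at 45.04 against 4.21 TPM. Their part in the class II level was not tested.

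In males (ΔEcad against Ecad) the log2 fold change was 0.58 (SE 1.05) for H2-Aa, 0.31 (SE 0.99) for H2-Ab1, 0.55 (SE 1.03) for H2-Eb1, 0.39 (SE 0.93) for Cd74 and 0.27 (SE 1.07) for Ciita. The H2-M chains lay on the other side, at -0.54 (SE 0.73) for H2-DMa and -0.45 (SE 0.85) for H2-DMb1, and both changed sign without Ecad male 4, to 0.43 and 0.48. All 7 were smaller than their errors, and the edgeR adjusted p ran from 0.801 to 0.941. The median was 0.31, beside 0.11 over all genes tested. Without the 3 tumours that stood apart the range was -0.71 to 0.35, with 0 called. Averaged over the sexes, 0 members were called (edgeR adjusted p 0.916 to 0.998, 0 with an unadjusted p under 0.05), where 0.0113% of all genes were. The interaction of genotype and sex called 0 members (edgeR adjusted p 0.778 to 0.954, 0 with an unadjusted p under 0.05) and 0% of all genes.

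Between the sexes, the fitted level of all 7 genes was lower in females in both genotypes, but no difference passed the test. In Ecad tumours (female against male) the log2 fold change was -0.77 (SE 1.05) for H2-Aa, -1.04 (SE 0.9999) for H2-Ab1, -0.81 (SE 1.03) for H2-Eb1, -0.88 (SE 0.93) for Cd74, -1.02 (SE 0.86) for H2-DMb1 and -1.07 (SE 1.08) for Ciita. The H2-M alpha chain H2-DMa differed most, by -1.63 (SE 0.75, unadjusted p 0.0363, edgeR adjusted p 0.273), with 2.96 to 79.4 TPM in females and 8.06 to 215 TPM in males. Of the 7 members 0 were called, as against 0.0508% of all genes, and 1 had an unadjusted p under 0.05. The count at an unadjusted p under 0.05 was 1 by DESeq2 and 5 by limma voom with quality weights, also with 0 called, and the lowest limma voom adjusted p was 0.0644, for Cd74. By edgeR, 16% of all genes had an unadjusted p under 0.05, and the share by the other tools is not given here. The 7 members rise and fall together, so these counts are not separate results. The median log2 fold change of the 7 was -1.02, beside 0.048 over all genes tested.

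**Figure D2:**
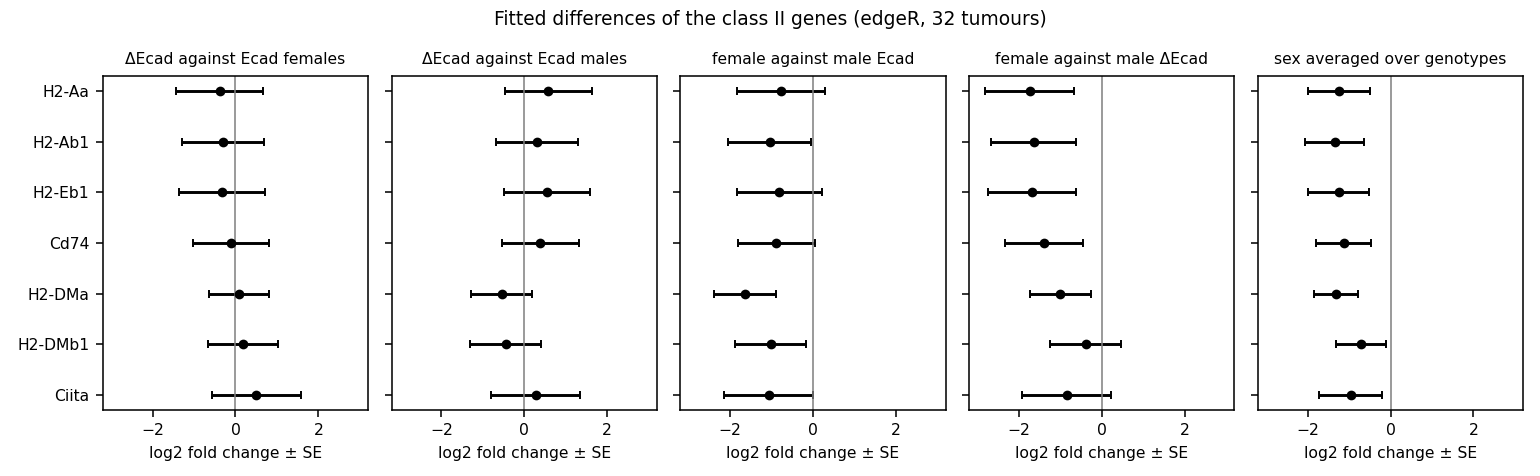
Log2 fold change (horizontal axis, point ± SE, edgeR) of each class II gene in 5 comparisons, each named in its panel as first group against second, sex being female against male. The 2 genotype panels hold points within 1 SE of 0, and the sex differences lie between -1.74 and -0.39, with 0 called.

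Ecad female 7 and Ecad male 4 pulled this comparison in opposite directions. Without Ecad female 7, H2-Ab1 was at -3.31 (SE 0.96, edgeR adjusted p 0.125) and H2-DMa at -2.85 (SE 0.72, edgeR adjusted p 0.122). Without Ecad male 4, the highest tumour for Ciita, H2-Ab1 was at -0.17 and H2-DMa at -0.62. Most leukocyte marker lists moved the same way as the class II genes, given here as median summed TPM in Ecad females and Ecad males. Macrophage markers were at 619 and 1742, T cell markers at 4.21 and 11.955, and dendritic cell markers at 7.04 and 31.2. Neutrophil markers were at 8.055 and 35.06, and the pan-leukocyte markers, closer together, at 172.2 and 229.31. B cell markers, at low levels, went the other way, at 4.42 and 2.67. With the leukocyte score as a covariate, H2-Ab1 differed by -0.16 (SE 0.62) and H2-DMa by -1.002 (SE 0.61), H2-DMb1 changed sign to 0.09 (SE 0.69), and 0 members were called. In bulk tissue, fewer cells of a type and less RNA per cell cannot be told apart.

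In ΔEcad tumours (female against male) the log2 fold change was -1.74 (SE 1.08) for H2-Aa, -1.65 (SE 1.02) for H2-Ab1, -1.69 (SE 1.06) for H2-Eb1, -1.38 (SE 0.94) for Cd74, -0.9998 (SE 0.74) for H2-DMa, -0.39 (SE 0.85) for H2-DMb1 and -0.85 (SE 1.08) for Ciita. The edgeR adjusted p lay between 0.654 and 0.928, 0 members were called, and 0 had an unadjusted p under 0.05, where 0.0395% of all genes were called. The median was -1.38, beside -0.057 over all genes tested. Without the 3 tumours that stood apart, the library labelled ΔEcad male 2 among them, H2-Ab1 was at -1.23 (SE 0.99) and H2-Aa at -1.32 (SE 1.04). With the leukocyte score as a covariate Ciita and H2-DMb1 changed sign, to 0.87 (SE 0.74) and 0.22 (SE 0.67). The others stayed negative, at -1.11 (SE 0.60) for H2-Eb1, -0.97 (SE 0.65) for H2-Aa and -0.90 (SE 0.59) for H2-Ab1. Cd74 was at -0.49 (SE 0.60) and H2-DMa at -0.21 (SE 0.64). Averaged over genotypes, the sex difference was -1.25 (SE 0.75) for H2-Aa, -1.34 (SE 0.71) for H2-Ab1, -1.25 (SE 0.74) for H2-Eb1, -1.13 (SE 0.66) for Cd74, -0.96 (SE 0.76) for Ciita and -0.70 (SE 0.60) for H2-DMb1. H2-DMa was again the member with the smallest p, at -1.32 (SE 0.52, unadjusted p 0.0173, edgeR adjusted p 0.714). Without Ecad female 7 the averaged difference was -2.48 (SE 0.64, edgeR adjusted p 0.264) for H2-Ab1, -2.39 (SE 0.69, edgeR adjusted p 0.425) for H2-Aa and -1.93 (SE 0.48, edgeR adjusted p 0.221) for H2-DMa. With the leukocyte score as a covariate it was -0.53 (SE 0.45) for H2-Ab1, -0.53 (SE 0.48) for H2-Aa and -0.61 (SE 0.47) for H2-DMa, and Ciita and H2-DMb1 changed sign, to 0.36 and 0.15. Of the 7 members 0 were called, beside 0.0734% of all genes, and their median of -1.25 stood beside -0.032 over all genes tested. DESeq2 gave 2 members and limma voom 5 members an unadjusted p under 0.05, with 0 called by either. By edgeR 1 member had one, beside 6.85% of all genes, and the share of all genes by the other tools is not given here.

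Ciita levels and those of its known target genes rose and fell together from tumour to tumour. Over the 32 tumours, Pearson's r of log2 CPM between Ciita and the others was 0.83 for H2-Aa, 0.83 for H2-Ab1, 0.86 for H2-Eb1, 0.89 for Cd74, 0.81 for H2-DMa and 0.83 for H2-DMb1. All 6 relations passed (100000 permutations, two-sided, adjusted over the 6, each at a permutation p of 1e-05, the smallest these permutations can give), and Spearman's rho lay between 0.82 and 0.88 with the same p. With the 2 tumours of most extreme Ciita left out, r lay between 0.77 and 0.87. Without the 3 tumours that stood apart it lay between 0.79 and 0.87, and with each gene centred within its group between 0.78 and 0.89.

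Within the groups of 8 the relation was tested by exact permutation over 40320 orders, with adjustment over the 24 relations. Pearson's r passed in 22 of 24 and Spearman's rho in 21 of 24. In Ecad males r lay between 0.949 and 0.977 for the 6 genes. The relations that did not pass by Pearson's r were those of H2-DMa (r = 0.69, exact permutation adjusted p 0.0559) and H2-DMb1 (r = 0.71, exact permutation adjusted p 0.0511) in Ecad females. By rho, H2-DMb1 in ΔEcad males did not pass either (rho = 0.62, exact permutation adjusted p 0.115). Between the chain genes themselves r was higher, at 0.99 for H2-Aa with H2-Ab1, 0.95 for H2-Eb1 with each of them and 0.94 for Cd74 with H2-Aa, given as a description.

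**Figure D3:**
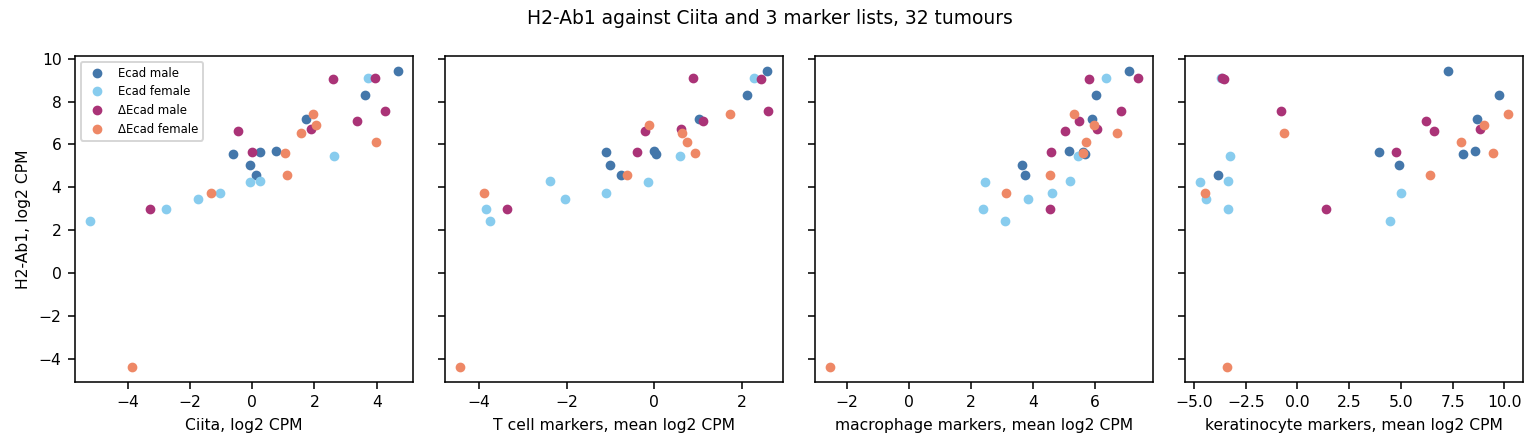
Log2 CPM of H2-Ab1 (vertical axis) against log2 CPM of Ciita and against the mean log2 CPM of T cell, macrophage and keratinocyte markers (horizontal axes), 1 point per tumour, coloured by group. H2-Ab1 rises with Ciita (r = 0.83), T cell markers (r = 0.86) and macrophage markers (r = 0.91) and shows no such line with keratinocyte markers (r = 0.29), and ΔEcad female 3 is the point at the lower left.

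The class II genes were then set against 12 lists of markers, each scored as the mean log2 CPM of its genes in a tumour, which made 84 relations adjusted together. Of these, 58 passed (100000 permutations, two-sided). T cell markers had r from 0.77 to 0.91 with the 7 members, macrophage markers 0.67 to 0.91, the pan-leukocyte markers 0.63 to 0.88 and dendritic cell markers 0.70 to 0.85, and all 28 of these relations passed (permutation adjusted p at most 0.00044). Spearman's rho for the same 4 lists ran from 0.69 to 0.91. Interferon-gamma response genes had r from 0.66 to 0.85 and class I presentation genes from 0.74 to 0.87, with all 14 relations passing. Ciita was the member most closely tied to the interferon-gamma response genes (r = 0.85), and H2-DMa the one most closely tied to the class I genes (r = 0.87). The scores of the leukocyte lists rise and fall together in these tumours, and all scores share the same 32 libraries.

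B cell markers, although B cells express class II at all times, had lower r, from 0.36 to 0.60, and passed for 6 of 7 members, or for 4 without the 3 tumours that stood apart. They are near the floor in these tumours, with a median summed level of 2.67 to 4.63 TPM over 7 genes in the 4 groups. Endothelial markers passed for 5 members (r from 0.25 to 0.68), but for 0 without the 3 tumours that stood apart and for 0 with the 2 tumours of most extreme score left out, so that relation rests on those tumours. Neutrophil markers passed for 2 members, and for 0 in each of these repeats. Fibroblast markers passed for 2 members, for 1 without the 3 tumours that stood apart, for 0 with the 2 tumours of most extreme score left out or with values centred within groups, and for 6 by Spearman's rho. Keratinocyte markers passed for 0 (r from 0.22 to 0.31), and for 1 by Spearman's rho. Melanocytic markers had negative r with all 7, from -0.42 to -0.28, and passed for 1, H2-DMa (r = -0.42, permutation adjusted p 0.0314). Without the 3 tumours that stood apart, among them ΔEcad male 7 with its low melanocytic level, 0 passed and H2-DMa was at r = -0.37. By Spearman's rho the melanocytic relation passed for all 7, from -0.50 to -0.41.

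**Figure D4:**
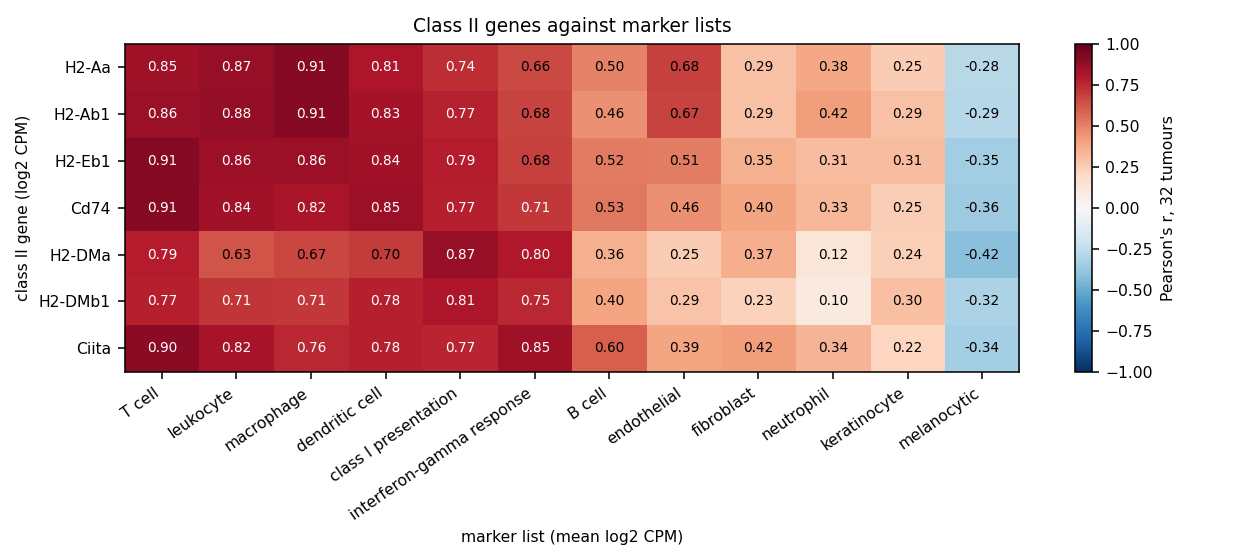
Pearson's r over 32 tumours between log2 CPM of each class II gene (rows) and the mean log2 CPM of each marker list (columns, ordered by their median r). The T cell, leukocyte, macrophage, dendritic cell, class I and interferon-gamma response columns lie between 0.63 and 0.91, and the melanocytic column between -0.42 and -0.28.

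Another 36 genes of the pathway were followed, 33 of which passed the filter. In the 7 comparisons 0 of the 33 were called in either direction, and those with an unadjusted edgeR p under 0.05 are named here, up to 5 in a direction. Over all genes tested, the share with such a p was 15.3% in females by genotype, 10.2% in males by genotype, 9.88% for genotype averaged and 17.7% for the interaction, so the counts of 3, 4, 1 and 4 of 33 given here are near or below that background. In females (ΔEcad against Ecad), 3 were lower, the cathepsins Ctsb (-1.33, SE 0.38, edgeR adjusted p 0.0591) and Ctsd (-0.95, SE 0.45), which are lysosomal proteases, and March8 (-0.56, SE 0.26), a ubiquitin ligase of surface proteins. In males, 4 were higher, the interferon-gamma receptor chain Ifngr2 (0.77, SE 0.21, edgeR adjusted p 0.365), the endosomal protease Lgmn (0.88, SE 0.33), the co-stimulatory ligand Cd80 (1.44, SE 0.60) and Ctsd (1.03, SE 0.45). Ctsb was at 0.38 (SE 0.37) in males, and the interaction terms of Ctsd and Ctsb were -1.98 (SE 0.63, edgeR adjusted p 0.0851) and -1.70 (SE 0.53, edgeR adjusted p 0.0782). The interaction also had an unadjusted p under 0.05 for Ifngr2 (-0.65, SE 0.30) and H2-Ob (-2.82, SE 1.32), and with genotype averaged over the sexes Ifngr2 had one (0.44, SE 0.15).

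Between the sexes, Ctsb had an unadjusted p under 0.05 in Ecad tumours, on the higher side in females (0.89, SE 0.38, edgeR adjusted p 0.233). The share over all genes was 16% there. In ΔEcad tumours 8 of the 33 had one, all on the lower side in females, beside 8.81% of all genes in either direction. Those with the smallest p were Ifi30 (-1.19, SE 0.37), the thiol reductase of endosomes, Ifngr2 (-0.63, SE 0.21), Ctsd (-1.27, SE 0.45), Cd80 (-1.68, SE 0.60) and Lgmn (-0.91, SE 0.33), each at an edgeR adjusted p of 0.484. Averaged over genotypes, 6 had one, beside 6.85% of all genes, again lower in females, among them Ifi30 (-0.73, SE 0.26), the co-stimulatory ligand Cd86 (-1.18, SE 0.50), March1 (-1.36, SE 0.60), which targets class II for turnover, Cd83 (-1.05, SE 0.47) and Cd80 (-0.91, SE 0.42), each at an edgeR adjusted p of 0.714. The median over the 33 was -0.35 there and -0.63 in ΔEcad tumours.

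How closely each gene followed the class II genes was measured as Pearson's r of its log2 CPM with the mean of the 7 members over 32 tumours, as a description. Over the 17710 other genes tested the median r was 0.020, and 216 genes exceeded 0.8. The 10 most alike were the T cell adhesion receptor Cd2 (0.95), the immunoproteasome subunit Psmb8 (0.93), Slamf8 (0.92), Epsti1 (0.92), AW112010 (0.91), Rasal3 (0.91), Ly86 (0.91), the interferon-induced Oas1a (0.90), the chemokine Cxcl16 (0.90) and the chemokine receptor Ccr7 (0.90). Of the 33 pathway genes 8 exceeded 0.8, Cd4 (0.87), H2-DMb2 (0.85), March1 (0.85), Cd83 (0.84), Cd86 (0.84), Cd40 (0.83), H2-Oa (0.82) and Ctss (0.81), the cathepsin that trims the invariant chain. Without the 3 tumours that stood apart, Ctss was at 0.89 and Cd4 at 0.81. The others of these 8 then lay under 0.8, from 0.767 for Cd86 to 0.7995 for H2-DMb2. Irf1, a transcription factor induced by interferon-gamma, was at 0.75, and at 0.87 without those 3 tumours. The receptor chains Ifngr1 and Ifngr2 were at 0.69 and 0.19 over the 32 tumours. The subunits of the complex on the X and Y boxes had r from -0.40 for Nfya to 0.44 for Rfxank, and the 3 RFX subunits were present in every tumour, Rfx5 at 4.38 to 26.0 TPM, Rfxap at 10.97 to 32.7 TPM and Rfxank at 7.46 to 41.9 TPM.

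Ifng, the gene of interferon-gamma, was too low to be tested, with at most 3 counts in 19 of 32 tumours. Its 3 highest levels were in Ecad male 4 (53 counts), Ecad male 6 (35 counts) and Ecad female 7 (26 counts), which are among the 5 tumours with the most H2-Ab1. The others of the 5, ΔEcad male 7 and ΔEcad male 8, had 4 counts each. The I-E alpha chain gene, listed as H2-Ea-ps, had 0 counts in 31 of 32 tumours and 8 counts in ΔEcad female 4.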

How the data were processed

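RNA of 32 tumours was sequenced by the study as stranded paired-end polyadenylated libraries. The authors aligned to GRCm38.p5 by STAR, took gene models from GENCODE M13 and deposited raw counts per gene, and the processing notes of the submitters list FastQC 0.11.5. The deposited TPM values are the same genes scaled for length and library total. Whether the tumours were batch corrected is not stated, and neither the strand setting of the counting nor the STAR version is given in the sources used here.

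Symbols came from GENCODE M21 (GRCm38), which named 50376 of 50600 genes, and promoters from RefSeq (GRCm38.p6). A single model of the 32 tumours, with a coefficient for each group, was fitted in edgeR 4.0.16 after TMM scaling and filterByExpr, and its robust quasi-likelihood test (two-sided) was applied to each comparison. A call needed an absolute log2 fold change over 1 and a p under 0.05 after Benjamini-Hochberg adjustment over 17717 genes. SE were derived from the test statistic. Log2 CPM used TMM factors and a prior count of 1. Relations used 100000 permutations, or exact permutation in groups of 8. Alternatives were DESeq2 1.42.0, limma 3.58.1, other size factors, filters and covariates, and each tumour left out. The scripts were tested on simulated data. Floors (a count of 0 allows 3 counts) cover counting error only, as reads carried no molecular identifiers. The labels number tumours within groups and say nothing of shared litters. The p-values treat the tumours as independent, which could not be checked, and they would be too small if tumours were related. The closest pair of tumours had r = 0.96, and none was treated as a duplicate. R 4.3.3 and Python (numpy, pandas, scipy) were used.

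The members and lists were chosen with earlier results of these data known. Named are the 7 members in every comparison (for the averaged genotype effect and the interaction by range), pathway genes with an unadjusted p under 0.05 (up to 5 in a direction), H2-Ea-ps, Cdh1, and the 10 genes most like the mean of the members. Other genes are named beside a result they bear on, chosen after their values were seen. The value of 1 pathway gene is not reported here.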

Additional observations from a re-analysis of the deposited data

Results flagged for a closer look

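Among 44 groups of 8 values checked, 7 held a tumour whose gap to the next exceeded 0.526 of the range of the group, where chance flags about 1 in 20. ΔEcad female 3 lay far below the other ΔEcad females for H2-Aa, at a log2 CPM of -5.192 with 0 counts, and for H2-Ab1, at -4.379 with 1 count. Its log2 ratio of Cd74 to H2-Ab1 was 5.555, a value set by the pseudocount of 0.1 TPM, since H2-Ab1 was within the floor of 3 counts there. Ecad female 7 lay above the other Ecad females for H2-Ab1, at a log2 CPM of 9.077.

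ΔEcad male 1 had a log2 ratio of H2-Aa to H2-Ab1 of -1.437, the lowest of the 32 tumours. ΔEcad female 4 had a log2 ratio of H2-Eb1 to H2-Ab1 of -3.36, from 32 counts of H2-Eb1 beside 475 of H2-Ab1. The library labelled ΔEcad male 2, whose sex-linked transcripts went against its label, had a log2 ratio of Cd74 to H2-Ab1 of 0.2649, below the other ΔEcad males.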

How the results depend on the processing

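The counts of members called stayed at 0 of 7 in all 7 comparisons under every alternative run, and the counts of Ciita relations, marker relations, level steps and ratios stayed within 1.5 times their value. The sign of a member's difference was less stable, and the cause was not tested. With limma voom with quality weights the reversed log2 fold changes were in females by genotype H2-Aa 1.09, H2-Ab1 1.13, H2-Eb1 1.09, Cd74 1.26, and in males by genotype H2-Aa -0.0069, H2-Eb1 -0.074, Cd74 -0.11. With limma on log2(TPM + 1) the reversed log2 fold changes were in females by genotype H2-Aa 0.56, H2-Ab1 0.53, H2-Eb1 0.30, Cd74 0.83, and in males by genotype H2-Aa -0.029, H2-Eb1 -0.027, Cd74 -0.075. With limma on log2(TPM + 0.1) the reversed log2 fold changes were in females by genotype H2-Aa 0.21, H2-Ab1 0.21, H2-Eb1 0.12, Cd74 0.83, and in males by genotype H2-Aa -0.039, H2-Eb1 -0.039, Cd74 -0.080. With the tumour number as a replicate block the reversed log2 fold changes were in females by genotype H2-Aa 0.74, H2-Ab1 0.92, H2-Eb1 0.82, Cd74 0.90. With library totals only the reversed log2 fold changes were in females by genotype Cd74 0.029. With the leukocyte score as a covariate the reversed log2 fold changes were in females by genotype Cd74 0.27, H2-DMb1 -0.0052, and in males by genotype Ciita -0.00090, and between the sexes in Ecad H2-DMb1 0.088, and between the sexes in ΔEcad Ciita 0.87, H2-DMb1 0.22, and between the sexes on average Ciita 0.36, H2-DMb1 0.15. Without the 3 tumours that stood apart it was in females by genotype Cd74 0.076. With the keratinocyte and melanocytic scores as covariates the reversed log2 fold changes were in females by genotype Ciita -0.19, H2-DMb1 -0.46, and in males by genotype H2-Aa -0.26, H2-Ab1 -0.068, H2-Eb1 -0.028, Cd74 -0.22. Leaving out each tumour in turn gave, in females by genotype, H2-Aa -0.66 to 1.89, H2-Ab1 -0.65 to 1.97, H2-Eb1 -0.68 to 1.97, Cd74 -0.48 to 1.84, Ciita -0.32 to 1.59, H2-DMa -0.077 to 1.31, H2-DMb1 -0.26 to 0.96. Leaving out each tumour in turn gave, in males by genotype, H2-Ab1 -0.077 to 1.15, Cd74 -0.12 to 1.04, Ciita -0.13 to 1.26, H2-DMa -0.86 to 0.43, H2-DMb1 -0.72 to 0.48. Ecad female 7 set the highest value of all 7 genes in females, and Ecad male 4 that in males. The relation of H2-DMb1 with neutrophil markers turned to -0.024 without the 3 tumours that stood apart. The tumour numbers did not pair the samples, with a median r of 0.042 over 48 same-numbered pairs, 18 of them over 0.1, and 1 tumour closest to its own number, and with the replicate block 0 members were called. The lowest adjusted p of any member under any alternative was 0.0644, for Cd74 between the sexes in Ecad (limma voom). Depth limits the lowest levels: Ciita had at most 3 counts in 3 tumours, and H2-Aa and H2-Ab1 in 1.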

Other observations

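ΔEcad female 4, with the low H2-Eb1, was also the tumour with H2-Ea-ps counts, 8 against 0 in the other 31. In the same tumour H2-DMb1 was at 1.33 TPM, the lowest of the ΔEcad females, and H2-DMa at 6.64 TPM, also the lowest.

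The relation of the class II genes with B cell markers, which are near the floor, was also computed within each group. Among Ecad tumours the median r over the 7 members was -0.07 in males and 0.81 in females, and among ΔEcad tumours it was 0.89 in males and 0.79 in females (n = 8 each), and the difference between groups was not tested. In ΔEcad female 3, 6 of 7 T cell markers and 6 of 10 macrophage markers were listed at 0 TPM, and H2-DMa still had 176 counts. That was 7.53 TPM, within the range of the other ΔEcad females, but a log2 CPM of 1.88, below the lowest of the others at 2.14. Reads of the overlapping Brd2 cannot be told apart from these counts.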
